A study of Mus musculus with 12 samples.

Results

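Gata4 and Gata6 are 2 of the 13581 genes listed in each library of a study that measured 5-hydroxymethylcytosine (5hmC) in mouse DNA, and they were chosen by name because both act in heart and in liver. The 12 libraries fall into 7 groups. Embryonic stem cells (ESC) were of the EB5 line, from the strain 129/Ola, and were grown with LIF; they gave 2 libraries. Whole heart and whole liver came from C57BL6/j mice, as 1 library each at embryonic day 14 (E14), and as 2 libraries each for neonatal day 1 to 2 (P1) and for 8 weeks of age (W8). No group carries an engineered allele or a drug treatment in the labels. Whether 2 libraries of a group stem from different animals or cultures is not in the labels, and the p-values below measure the spread between these libraries, which may be technical. Strain goes with ESC against tissue, and read format goes with age, since the libraries of ESC and newborns are paired-end (75 bp) and those of E14 and W8 single-end (50 bp). Effects of strain or of read format cannot be told apart from those comparisons.

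GATA4 and GATA6 are zinc-finger transcription factors that bind the DNA word after which the family is named. Both are needed early in the extraembryonic endoderm and later in heart muscle and in the liver bud, where they act with FOG cofactors and with other factors such as TBX5, NKX2-5 and FOXA proteins. 5hmC is made when Tet enzymes oxidise 5-methylcytosine, and it is commonly found along the bodies of active genes and less often at the start sites of genes rich in CpG.

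In mm9 coordinates, the Gata4 entry (NM_008092) lies on the minus strand. Its gene body runs from 63817759 to 63862108, which is 44350 bp of exons and introns. A promoter window of 4000 bp, from 63862109 to 63866108, adjoins the body on its upstream side. The coordinates do not mark the transcription start, so windows may span it and bodies may leave out the start of the gene. The Gata6 entry (NM_010258) lies on the plus strand, with a body of 31126 bp from 11054508 to 11085633 and a promoter window from 11050508 to 11054507. The deposited tables name no chromosome; RefSeq places Gata4 on mouse chromosome 14 and Gata6 on mouse chromosome 18. Levels are the authors' FPKM, the reads over a region scaled to its length and to library depth, so the 2 genes and their windows share 1 unit. Other differences between regions are not removed by that scaling. A level counts captured reads relative to the rest of the library and is not a share of cytosines.

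Reads over all gene bodies came to between 604012 and 5763078 in 11 libraries and to 142810 in W8 heart replicate 2. That library stood apart: its median gene body held 5 reads, against 19 to 207 elsewhere, and 46.1% of its promoter windows held none. Over the members it held 19 reads in the Gata4 body and 12 in the Gata6 body. The tissue labels were checked against lists of marker genes. The summed gene-body level of 7 cardiomyocyte markers ran from 12.6 to 25.2 FPKM in hearts and from 2.39 to 4.91 FPKM in livers. The summed level of 7 hepatocyte markers ran from 8.98 to 10.03 FPKM in P1 and W8 livers and from 2.48 to 3.42 FPKM in E14 and P1 hearts. It was 3.87 FPKM in E14 liver, close to the 3.36 and 3.72 FPKM of ESC, and reached 7.92 FPKM in 1 of the W8 heart libraries.

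The Gata4 gene body carried little 5hmC in ESC and several times more in newborn heart and newborn liver. Its level was 0.525 and 0.455 FPKM in the 2 ESC libraries. Newborn heart held 1.70 and 1.73 FPKM, and newborn liver 1.56 and 1.69 FPKM. All 4 newborn libraries lay above both ESC libraries, and heart and liver lay side by side. The single E14 libraries, at 0.697 FPKM in heart and 0.642 FPKM in liver, stood between ESC and newborn tissue. Adult levels were 1.41 and 1.31 FPKM in W8 heart and 1.92 and 2.04 FPKM in W8 liver. In FPKM the 2 adult tissues did not overlap, with liver the higher. How many of all gene bodies separate as these groups do was not counted.

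Means of the Gata4 body were 0.490 ± 0.0497 FPKM in ESC (SD, n = 2), 1.71 ± 0.0184 in P1 heart (SD, n = 2) and 1.62 ± 0.0882 in P1 liver (SD, n = 2). P1 heart was thus 3.49-fold and P1 liver 3.31-fold above ESC. In limma, fitted over 13484 gene bodies with Benjamini-Hochberg adjustment, the rise was 1.66 ± 0.14 on the log2 scale in heart (SE, adjusted p = 0.00773) and 1.59 ± 0.14 in liver (SE, adjusted p = 0.00712). The folds are ratios of mean FPKM, while the differences in limma are on the log2(FPKM + 0.0746) scale, which understates changes of low genes. Of all gene bodies tested, 12.7% passed the threshold of 0.05 between P1 heart and ESC; those that rose were 5.60% of the genes tested and those that fell 7.10%, or 11.3% and 4.96% after centring each library on its median. Between P1 liver and ESC, 15.4% passed, 10.4% upward and 5.05% downward. In whole tissue, a change in the number of cells of a type and a change of 5hmC per cell cannot be told apart.

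Both Gata4 calls rest on having 2 ESC libraries. Without ESC replicate 1 the adjusted p in limma was 0.0808 in heart and 0.0634 in liver, and without ESC replicate 2 it was 0.0917 and 0.0548. Without P1 liver replicate 1 the liver value was 0.0612. The size of the rise ranged over these and the other omissions from 1.57 to 1.75 in heart and from 1.499 to 1.68 in liver, on the log2 scale.

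**Figure D1:**
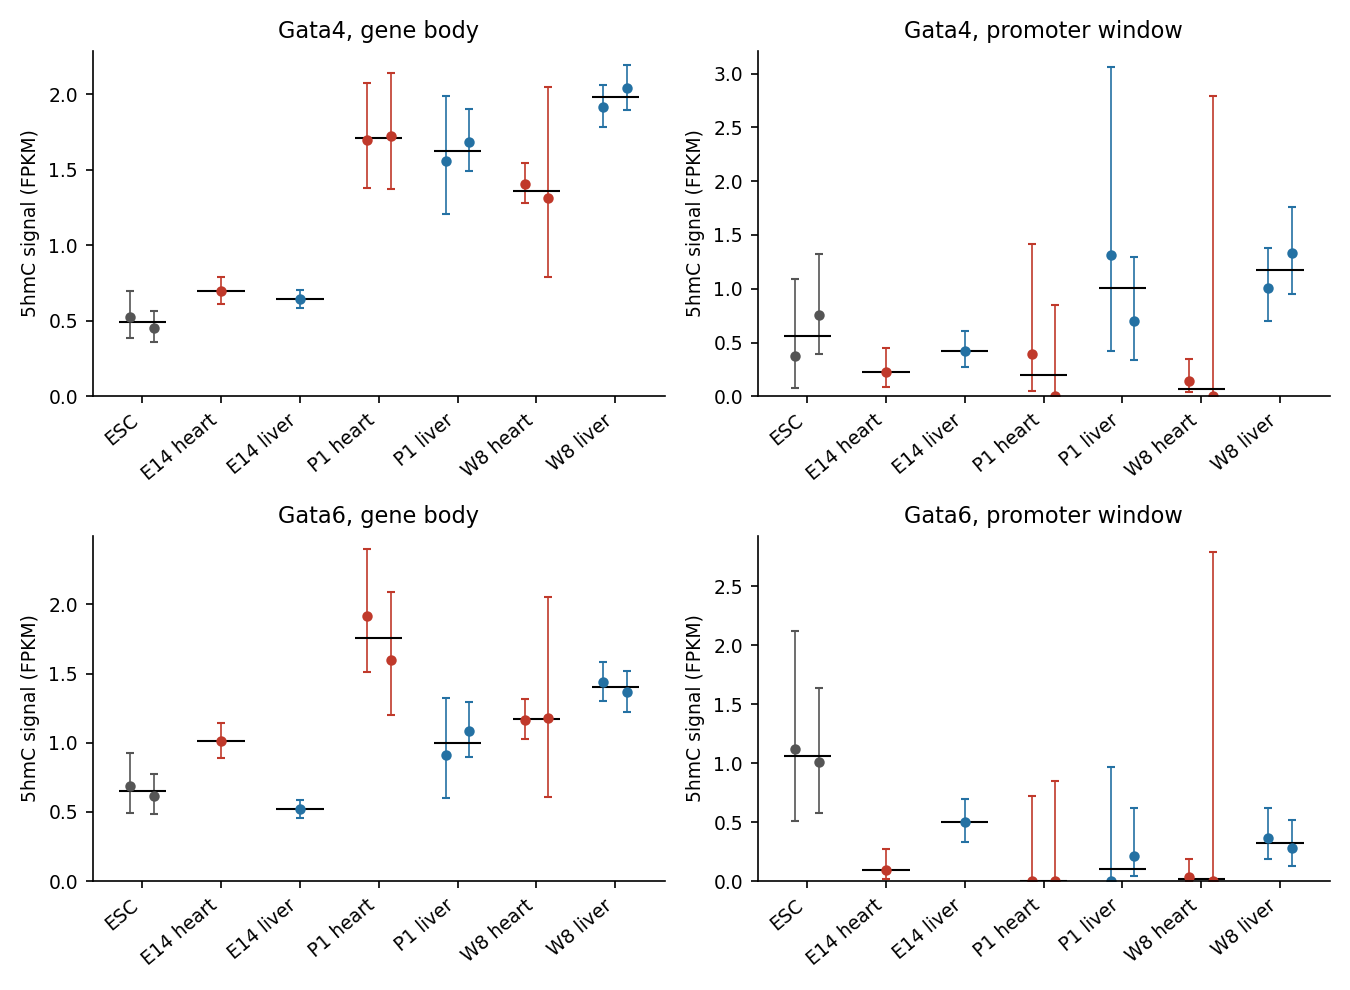
5hmC level (FPKM, vertical axes) of the Gata4 and Gata6 gene bodies and promoter windows in each group, with 1 point per library, its exact 95% Poisson interval (counting error only) and a black line at the group mean. Gene bodies rise from ESC to P1 heart (Gata4 0.490 to 1.71 FPKM, Gata6 0.651 to 1.76 FPKM), while promoter points rest on 0 to 43 reads; intervals of W8 heart replicate 2 reach 2.79 FPKM at 0 reads.

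The Gata6 gene body was also higher in newborn heart than in ESC, but in newborn liver its level lay nearer to ESC. It stood at 0.685 and 0.616 FPKM in ESC. Newborn heart held 1.92 and 1.60 FPKM, and newborn liver 0.910 and 1.08 FPKM. The 3 groups did not overlap, with heart the highest and ESC the lowest. E14 heart held 1.01 FPKM and E14 liver 0.521 FPKM, so that in FPKM E14 liver lay below both ESC libraries. By rank within a library it lay above both. In the adult, W8 heart held 1.16 and 1.18 FPKM and W8 liver 1.44 and 1.37 FPKM, again without overlap and with liver the higher. By rank within a library, adult heart was the higher instead. How many of all gene bodies separate in these ways was not counted.

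The mean of the Gata6 body was 0.651 ± 0.0487 FPKM in ESC (SD, n = 2), 1.76 ± 0.224 in P1 heart (SD, n = 2) and 0.996 ± 0.123 in P1 liver (SD, n = 2). The rise from ESC to P1 heart was 2.70-fold, or 1.33 ± 0.15 on the log2 scale (SE, limma adjusted p = 0.0115). That call was lost without ESC replicate 1 (limma adjusted p = 0.0990), without ESC replicate 2 (0.0918) and without P1 heart replicate 2 (0.0511). P1 liver was 1.53-fold above ESC, a difference of 0.56 ± 0.15 (SE) that missed the threshold (limma adjusted p = 0.0527). It passed, with the same difference, when W8 heart replicate 1 (0.0282) or W8 heart replicate 2 (0.0285) was left out, in fits where 20.9% or 20.8% of all gene bodies rose. So 2 of 2 members rose in P1 heart, where 5.60% of all gene bodies rose, and 1 of 2 in P1 liver, where 10.4% did.

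Newborn heart and liver were set against each other for both genes, where 2.28% of all gene bodies passed, 0.349% higher and 1.93% lower in heart, or 0.705% and 0.386% after median centring. For Gata4 the difference was 0.08 ± 0.14 on the log2 scale (SE, limma adjusted p = 0.764), with a 95% interval from -0.24 to 0.40. For Gata6, P1 heart was 1.76-fold above P1 liver, a difference of 0.77 ± 0.15 (SE) that also missed the threshold (limma adjusted p = 0.0554), with an interval from 0.41 to 1.14. Leaving out either W8 heart library brought it past (0.0177 in both cases), in fits where 5.87% or 5.90% of all gene bodies were higher in heart and 16.5% lower. The median of all gene bodies was -0.23 in this comparison, and with each library centred on its median Gata6 differed by 1.03 (limma adjusted p = 0.0443). In the single E14 libraries the Gata6 body held 1.94 times as much in heart as in liver, with an exact 95% interval of 1.62 to 2.32, and Gata4 1.09 times, with 0.925 to 1.27. These E14 intervals cover counting error only and compare 2 libraries, not the tissues.

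In the adult, the Gata4 body was lower in heart than in liver. W8 heart stood at 1.36 ± 0.0684 FPKM (SD, n = 2) and W8 liver at 1.98 ± 0.0882 (SD, n = 2), a difference of -0.52 ± 0.14 on the log2 scale (SE, limma adjusted p = 0.0294). For Gata6, at 1.17 ± 0.00861 FPKM in W8 heart (SD, n = 2) and 1.40 ± 0.0494 in W8 liver (SD, n = 2), the difference was -0.24 ± 0.15 (SE, limma adjusted p = 0.254). Here 30.8% of all gene bodies passed, 9.49% higher and 21.3% lower in heart, and their median was itself -0.32. After median centring the shares were 16.4% and 10.1%. Relative to that median the Gata4 difference was -0.20 (limma adjusted p = 0.309 after centring each library on its median), and that of Gata6 was 0.07, turned in sign (0.742). The Gata4 call was also lost without W8 liver replicate 1 (limma adjusted p = 0.128), without W8 liver replicate 2 (0.175), and with only the 2 adult groups in the fit (0.151).

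From newborn to adult, the deposited FPKM levels of both members were lower in heart and higher in liver. All W8 heart levels lay below all P1 heart levels, and all W8 liver levels lay above all P1 liver levels, for both genes. How many of all gene bodies separate in this way was not counted. By rank within a library, the W8 and P1 heart libraries overlapped for both genes. None of the changes from P1 to W8 passed the threshold in limma. In heart the change was -0.32 ± 0.14 for Gata4 (SE, adjusted p = 0.196) and -0.55 ± 0.15 for Gata6 (SE, adjusted p = 0.149), where 0.0148% of gene bodies passed. In liver it was 0.28 ± 0.14 for Gata4 (SE, adjusted p = 0.255) and 0.47 ± 0.15 for Gata6 (SE, adjusted p = 0.107), where 9.84% passed. The test of the difference itself, the change in heart less the change in liver, gave -0.59 ± 0.19 for Gata4 (SE, limma adjusted p = 0.182) and -1.02 ± 0.22 for Gata6 (SE, limma adjusted p = 0.103). Its adjusted p was 0.0420 and 0.0217 without W8 heart replicate 1, which leaves the shallow library alone as W8 heart; 11.7% of gene bodies were then higher and 17.5% lower, against 0.0148% that passed in the fit of all libraries. The median gene body changed by -0.30 in heart and by -0.23 in liver, so the Gata4 decrease in heart was of the size of the median and became 0.0049 after median centring. Read format changed between the same ages.

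**Figure D2:**
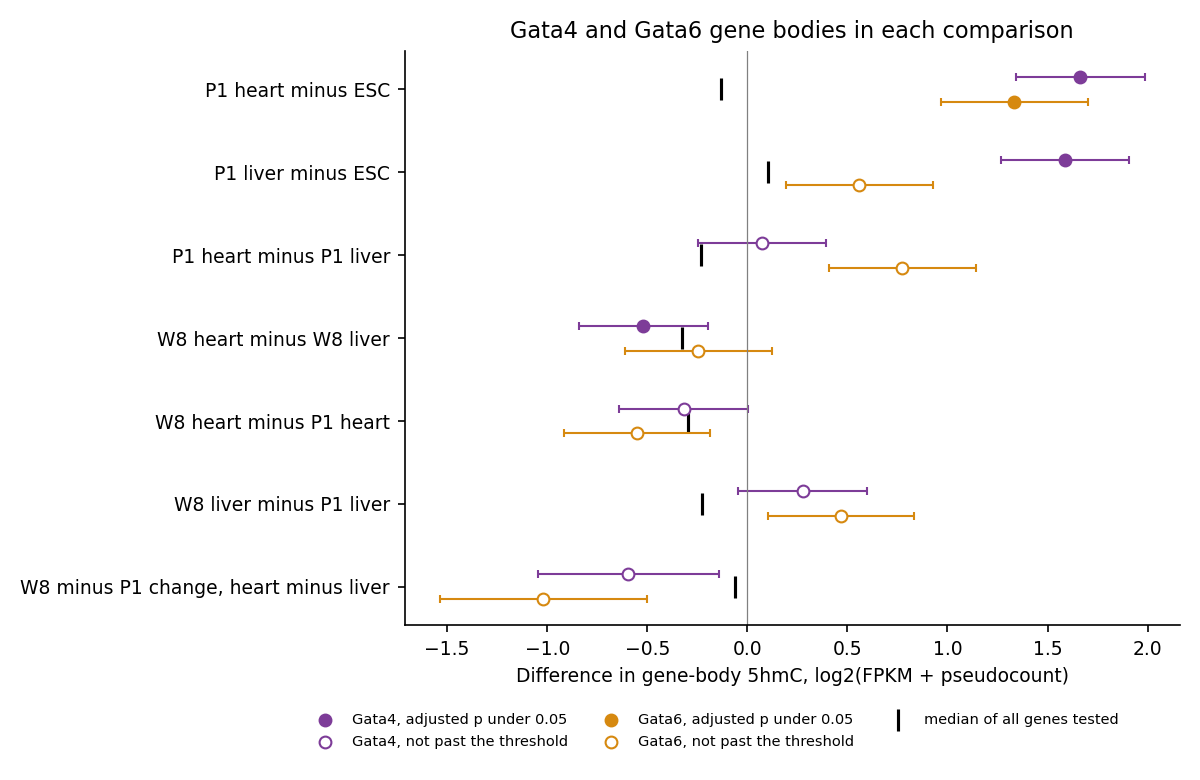
Difference in gene-body 5hmC (log2(FPKM + 0.0746), horizontal axis) for Gata4 and Gata6 in 7 comparisons, with 95% intervals from limma; filled points passed the adjusted threshold and black bars mark the median of all genes tested. Gata4 lies at 1.66 and 1.59 for P1 heart and P1 liver against ESC, whereas Gata6 lies at 1.33 and 0.56.

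Rank within a library does not depend on how that library was scaled. Among all gene bodies of a library, Gata4 stood at the 25.7th and 21.4th percentile in ESC, the 88.3rd and 90.9th in newborn heart and the 77.2nd and 85.0th in newborn liver. In the adult it stood at the 94.5th and 84.6th percentile in heart and at the 90.1st and 92.9th in liver, so by rank the adult tissues overlapped. Gata6 stood at the 36.0th and 32.4th percentile in ESC, the 92.1st and 88.6th in newborn heart and the 46.4th and 60.8th in newborn liver. Its adult ranks were the 88.8th and 80.8th percentile in heart and the 80.3rd and 78.2nd in liver. By rank heart was thus the higher, while the FPKM order was the other way round. The 80.8th percentile lies close to the 80.3rd and comes from W8 heart replicate 2, with 12 reads in the Gata6 body. In E14 the ranks of heart and liver were 52.7 and 67.6 for Gata4, and 75.5 and 49.8 for Gata6. So by rank E14 liver stood above E14 heart for Gata4 and above both ESC libraries for Gata6. The FPKM order was the other way round in both cases.

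Ordered by mean gene-body level, Gata4 ran from W8 liver through P1 heart, P1 liver, W8 heart, E14 heart and E14 liver to ESC. P1 heart and P1 liver, neighbours in that order, were 1.06-fold apart, about the SD of P1 liver (0.0882 FPKM), and the E14 tissues had counting intervals of their ratio that included 1. For Gata6 the order was P1 heart, W8 liver, W8 heart, E14 heart, P1 liver, ESC and E14 liver. E14 heart fell within the range of the 2 P1 liver libraries. Within a library, Gata6 exceeded Gata4 in both ESC libraries, by 0.38 and 0.44 on the log2 scale, and in E14 heart, by 0.54. It was below Gata4 in all 5 liver libraries, by -0.78 and -0.64 at P1, -0.42 and -0.58 at W8 and -0.30 at E14. The P1 heart libraries lay on both sides of equality, at 0.17 and -0.11, and the W8 heart libraries at -0.27 and -0.16.

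Promoter windows held few reads, and that of Gata6 lay lower in newborn heart than in ESC, where its body lay higher. The Gata6 window held 9 and 16 reads in ESC, or 1.12 and 1.01 FPKM, and 0 reads in both libraries of P1 heart. P1 liver held 0 and 3 reads, W8 heart 1 and 0, W8 liver 13 and 9, E14 heart 3 and E14 liver 31. Taking 3 reads over the group as the floor, the P1 heart window would stand 3.34-fold below ESC. The exact 95% interval of the pooled ratio of P1 heart to ESC, 0 to 0.403 (counting error only), allows a smaller fall. Pooled reads of P1 liver were 0.159 times those of ESC at equal depth (exact 95% interval 0.0307 to 0.521, counting error only).

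The Gata4 window held 3 and 12 reads in ESC and 2 and 0 in P1 heart. E14 heart held 7 reads in it, E14 liver 26, and the newborn livers 5 and 10. In the adult it held 4 and 0 reads in heart and 36 and 43 in liver, or 0.138 and 0 against 1.01 and 1.33 FPKM. The 0 of W8 heart replicate 2 allows up to 2.27 FPKM at a floor of 3 reads and so shows little. Pooled by group, W8 heart held 0.113 times the level of W8 liver (exact 95% interval 0.0302 to 0.302, counting error only). That pooled heart value rests almost wholly on replicate 1, where 1 read is 0.0340 FPKM, against 0.756 FPKM in replicate 2. At E14, heart held 0.190 times the Gata6 window level of liver (0.0371 to 0.608) and 0.527 times that of Gata4 (0.193 to 1.25). At both E14 and W8 the Gata6 window held less in heart than in liver, whereas its body held more in heart at E14 and less at W8.

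In limma over 13504 promoter windows none of the 14 member results passed, although 5 had an unadjusted p under 0.05, as had 5.41% to 17.9% of all windows by comparison. In gene bodies 4 of 14 passed and 10 had such a p, as had 19.2% to 45.4% of all bodies. Among the promoter results the largest were Gata6 in P1 heart against ESC, at -3.97 ± 0.90 (SE, adjusted p = 0.104), and Gata4 in W8 heart against W8 liver, at -3.32 ± 1.07 (SE, adjusted p = 0.256). Gata6 in P1 liver against ESC was -2.99 ± 0.90 (SE, adjusted p = 0.125). The median of all windows was -0.015 in P1 heart against ESC, 0.44 in P1 liver against ESC and -0.49 in W8 heart against W8 liver. Windows at 0 make these fitted values depend on the pseudocount of 0.0723, and they are no bounds. Over all windows the share that passed was 0.0741% in P1 heart against ESC, 0.163% in P1 liver against ESC, 0% for the heart and liver change from P1 to W8, and 0.00741% in each of the other 4 comparisons. Without W8 heart replicate 2 the falls of the Gata6 window passed in limma, with adjusted p = 0.0246 for newborn heart and 0.0317 for newborn liver, while 2.70% and 3.25% of all windows then fell. Without W8 heart replicate 1 they were 0.0245 and 0.0318, and the adult Gata4 difference had an adjusted p of 0.00826. In that fit W8 heart is replicate 2 alone, whose 0 reads allow more than the W8 liver levels, and 31.8% of all windows were lower in W8 heart.

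The ratio of gene body to promoter window sets both readings in 1 number. In ESC it was 0.764 for Gata4 (exact 95% interval 0.446 to 1.40) and 0.612 for Gata6 (0.395 to 0.983). The median of all genes, 1.31, lay within the Gata4 interval and above that of Gata6. In hearts the Gata4 ratio was 3.16 at E14, 8.07 at P1 and 10.6 at W8, and in livers 1.53, 1.996 and 1.70. The exact 95% interval of the P1 heart ratio, which rests on 2 promoter reads, was 2.20 to 67.2. For Gata6 the ratio was 10.7 in E14 heart on 3 promoter reads (3.61 to 52.1). In P1 heart, with 0 promoter reads, it was 5.57 at the floor of 3 reads, and its exact 95% interval runs from 4.46 upward. W8 heart had 1 promoter read, and its ratio of 35.3 has an interval of 6.29 to 1401. In the livers the Gata6 ratio was 1.04 at E14, 6.30 at P1 on 3 promoter reads (2.11 to 30.9) and 4.33 at W8. Medians of all genes lay between 0.993 and 1.31 in the 7 groups. These medians use mean FPKM of genes above 0 in both regions, not pooled reads. The Gata4 ratios of heart and liver had intervals that overlapped at E14 and at P1; at W8 they ran from 4.13 to 39.2 in heart and from 1.36 to 2.16 in liver. The bound of Gata6 in P1 heart leaves its order to liver unknown. These ratios come from pooled reads of a group, with as few as 0 to 4 promoter reads in P1 and W8 hearts, and were not tested.

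**Figure D3:**
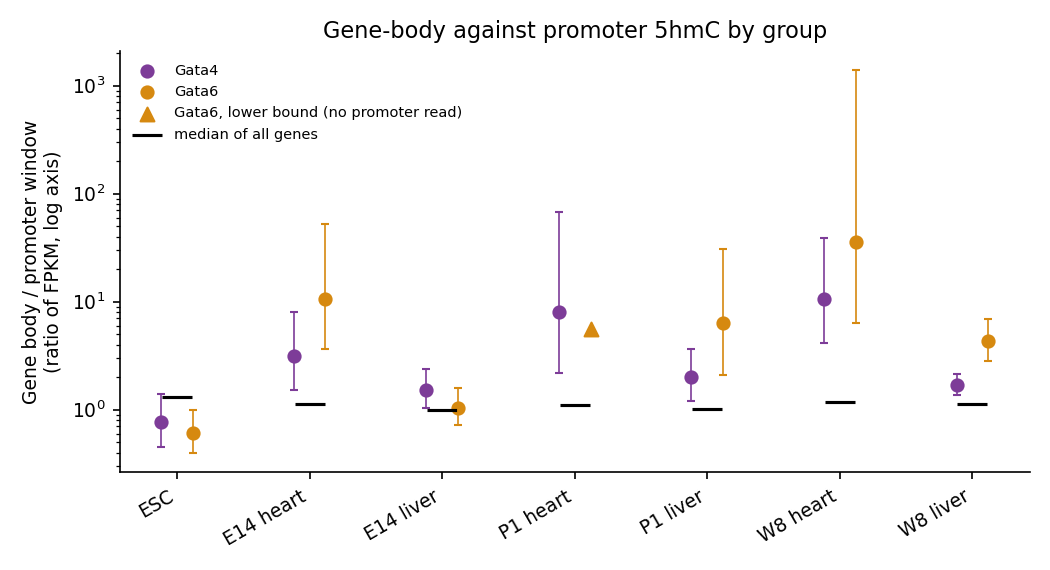
Ratio of gene-body to promoter-window 5hmC (FPKM over FPKM, log vertical axis) for Gata4 and Gata6, from pooled reads of each group. Black bars are the median of all genes, from mean FPKM. Whiskers are exact 95% intervals (counting error only). The triangle marks a window without reads, drawn at a floor of 3 reads. In ESC both points lie below the bar (0.764 and 0.612 against 1.31), though the Gata4 interval takes it in. In hearts the points run upward from 3.16, with wide intervals.

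The GATA family has 6 GATA factors and the related repressor Trps1, and all 7 were measured. In P1 heart against ESC 2 rose, Gata4 and Gata6, and 1 fell, beside 5.60% and 7.10% of all gene bodies. The median of the 7 was -0.17, against -0.13 over all genes. Gata3, a factor of T cells and of trophoblast, fell by 1.75 ± 0.38 on the log2 scale (SE, limma adjusted p = 0.0331), from 1.496 ± 0.0928 FPKM in ESC (SD, n = 2) to 0.4002 ± 0.134 in P1 heart (SD, n = 2). Gata2, a blood and endothelial factor, differed by -1.76 ± 0.65 (SE) without passing, and the erythroid factor Gata1 by -0.75 ± 0.41. In P1 liver against ESC 1 of the 7 rose, Gata4, and 0 fell, beside 10.4% and 5.05% of all gene bodies. Between P1 heart and P1 liver 0 of 7 passed in limma, beside 2.28% of all gene bodies. An unadjusted p under 0.05 was found for 1, Gata6, and for 24.9% of all genes. In W8 heart against W8 liver Trps1 was higher, by 0.78 ± 0.15 (SE, limma adjusted p = 0.0131), where Gata4 was lower. Trps1 also fell between P1 and W8 liver, by 0.63 ± 0.15 (SE, limma adjusted p = 0.0477), in a comparison where 8.91% of gene bodies fell; after median centring 0 of the 7 fell there. Gata5, the other GATA factor of heart and endoderm, had 10 to 45 reads per group and passed in none of the 7 comparisons in limma.

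**Figure D4:**
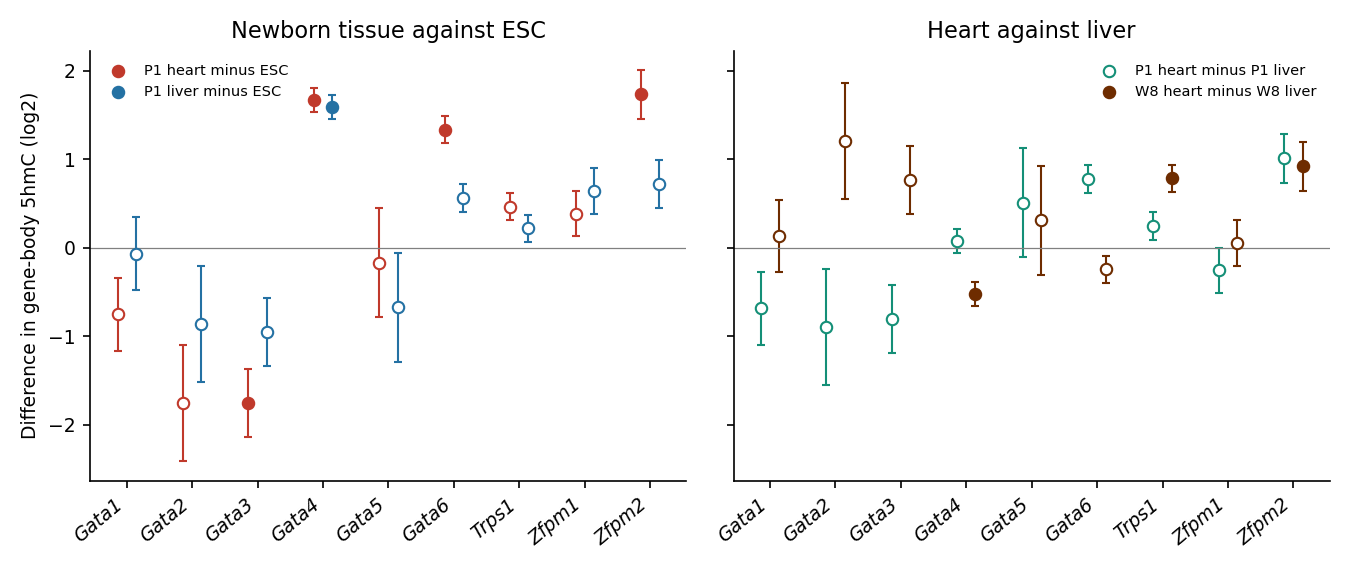
Difference in gene-body 5hmC (log2, vertical axes, ± SE) of the 7 family members and the FOG cofactors Zfpm1 and Zfpm2, for newborn tissue against ESC (left) and heart against liver (right); filled points passed the adjusted threshold. Gata4 and Gata6 lie at 1.66 and 1.33 in P1 heart against ESC, where Gata3 lies at -1.75.

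Of 12 partners and cofactors, 2 rose in P1 heart and 0 fell, and in P1 liver 1 rose and 2 fell, each against ESC, beside 5.60% and 7.10% of all gene bodies in heart and 10.4% and 5.05% in liver. Zfpm2, which encodes the FOG2 cofactor that binds GATA4, rose by 1.73 ± 0.27 in P1 heart (SE, limma adjusted p = 0.0170), from 0.176 ± 0.00137 FPKM in ESC to 0.758 ± 0.0118 (SD, n = 2 each). Mef2c, a muscle transcription factor, rose in both, by 1.36 ± 0.16 in P1 heart (SE, limma adjusted p = 0.0115) and by 0.89 ± 0.16 in P1 liver (SE, limma adjusted p = 0.0165). Tbx5, a T-box factor of the heart that acts with GATA4, fell by 1.46 ± 0.25 in P1 liver (SE, limma adjusted p = 0.0155) and was the single partner that passed between P1 heart and P1 liver, higher by 1.82 ± 0.25 (SE, limma adjusted p = 0.0381). In W8 heart against W8 liver 3 were higher and 0 lower, beside 9.49% and 21.3% of all: Mef2c by 1.56 ± 0.16 (SE, limma adjusted p = 0.00414), Tbx5 by 1.57 ± 0.25 (0.00808) and Zfpm2 by 0.92 ± 0.27 (0.0429). Gata4 was lower in heart in that same comparison. Hand2, a heart and limb factor, held 27 reads in ESC and 1 in P1 liver, and passed as lower there (limma adjusted p = 0.0480). The median of the 12 was 0.26 in P1 heart against ESC and -0.14 in W8 heart against W8 liver, beside -0.13 and -0.32 over all genes.

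Of 12 heart genes listed as GATA targets, 8 were measured. Against ESC 2 rose in P1 heart and 2 in P1 liver, with 0 falling; 0 passed between the newborn tissues in limma, where 3 had an unadjusted p under 0.05 (24.9% of all genes), and 4 were higher in W8 heart than in W8 liver. Of all gene bodies 5.60% rose in P1 heart, 10.4% rose in P1 liver and 9.49% were higher in W8 heart than in W8 liver. After median centring the count in P1 heart was 4. Slc8a1, the sodium-calcium exchanger of heart muscle, rose by 2.31 ± 0.38 in P1 heart (SE, limma adjusted p = 0.0180). Plxna2, a semaphorin receptor, rose by 1.25 ± 0.17 in P1 liver (SE, limma adjusted p = 0.00952). Myh6, the alpha myosin heavy chain, was higher by 2.72 ± 0.39 in W8 heart (SE, limma adjusted p = 0.00621), and Ccnd2, a D-type cyclin, by 1.32 ± 0.28 (0.0157). The median of the 8 was 0.64 in P1 heart against ESC and 1.06 in W8 heart against W8 liver.

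Of 13 endoderm and liver genes, 12 were measured. Against ESC, 1 rose and 1 fell in P1 heart, and 3 rose and 0 fell in P1 liver. Between the newborn tissues 1 was lower in heart and 0 were higher. Of all gene bodies, 5.60% rose and 7.10% fell in P1 heart, 10.4% rose and 5.05% fell in P1 liver, and 1.93% were lower in newborn heart than in newborn liver. After median centring 3 of the list rose in P1 heart and 0 were lower there than in newborn liver. In W8 heart 1 was higher than in W8 liver and 2 were lower, beside 9.49% and 21.3% of all gene bodies, or 2 and 1 after median centring. Hnf4a, a liver transcription factor, was lower in W8 heart, by -1.55 ± 0.34 (SE, limma adjusted p = 0.0174). Dab2, an endocytic adaptor of the extraembryonic endoderm, rose by 0.91 ± 0.15 in P1 liver (SE, limma adjusted p = 0.0138). Lama1, a laminin chain of the same tissue, was higher in W8 heart by 1.20 ± 0.18 (SE, limma adjusted p = 0.00656). From P1 to W8 liver 0 rose in any of these lists, beside 0.934% of all gene bodies. Those that fell were 1 family gene, 1 partner, 0 heart targets and 2 endoderm and liver genes, beside 8.91% of all. In W8 heart against P1 heart, and in the difference of the changes, 0 of each list passed in limma. An unadjusted p under 0.05 was found for 1 family gene, 6 partners, 3 heart targets and 1 endoderm or liver gene in the first, where 25.6% of all genes had one, and for 4, 2, 1 and 3 in the second, where 19.2% had one.

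These counts grew without W8 heart replicate 2, as did those of all genes. In P1 heart against ESC the family then had 3 higher and 3 lower, the partners 4 and 0, the heart targets 4 and 0 and the endoderm and liver genes 3 and 4, beside 13.6% of all genes higher and 19.5% lower. In P1 liver against ESC they had 2 and 1, 3 and 3, 3 and 2, and 5 and 1, beside 20.8% and 12.8%. Between P1 heart and P1 liver they had 1 and 0, 5 and 0, 3 and 0, and 0 and 4, beside 5.90% and 16.5%. Between W8 heart and W8 liver they had 1 and 1, 5 and 1, 5 and 0, and 1 and 3, beside 12.9% and 26.9%. From P1 to W8 liver 3, 4, 2 and 3 fell and 0 rose, beside 21.2% of all genes that fell.

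The genes on either side of Gata4 were compared in the same fit, using the order of genes in RefSeq. Fdft1, squalene synthase, lies 23128 bp from the Gata4 body and rose from ESC by 1.29 ± 0.20 in P1 heart (SE, limma adjusted p = 0.0164) and by 2.01 ± 0.20 in P1 liver (SE, limma adjusted p = 0.00712). Wdfy2, an endosomal protein gene 242035 bp away on the same side, rose in both as well, by 1.23 ± 0.16 (0.0130) and 1.58 ± 0.16 (0.00712). Between them, Ctsb, cathepsin B, rose in P1 liver by 2.53 ± 0.43 (SE, limma adjusted p = 0.0146) and stood 1.61 ± 0.43 higher in P1 heart without passing (0.0518). On the other side Blk, a B-cell kinase, rose in P1 heart by 1.00 ± 0.19 (SE, limma adjusted p = 0.0225), while Fam167a and Tdh passed in neither. So 3 of the 6 nearest genes of Gata4 rose in P1 heart and 3 in P1 liver, beside 5.60% and 10.4% of all gene bodies.

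The genes around Gata6 were described in the same way. None of its 6 nearest genes passed in P1 heart against ESC in limma, though 2 had an unadjusted p under 0.05, as had 31.9% of all genes. Gata6 itself rose by 1.33 there; their differences ran from -0.49 for Abhd3 to 0.55 for Rbbp8. In P1 liver 2 of the 6 rose, beside 10.4% of all gene bodies, the cohesin acetyltransferase Esco1 by 0.85 ± 0.21 (SE, limma adjusted p = 0.0402) and the ubiquitin ligase Mib1 by 0.72 ± 0.16 (SE, limma adjusted p = 0.0296). These neighbours lie far off, the nearest, Mib1, 235931 bp from the Gata6 body, and the difference between the 2 loci was not tested. In W8 heart against W8 liver, Wdfy2 was lower by -0.79 ± 0.16 (SE, limma adjusted p = 0.0145), as Gata4 was, whereas Blk and Fam167a were higher by 0.64 ± 0.19 (0.0400) and 1.01 ± 0.30 (0.0440). Esco1 and Riok3 near Gata6 were lower by -1.19 ± 0.21 and -1.25 ± 0.27 (adjusted p = 0.0175 for Riok3). That made 3 of the 6 neighbours of Gata4 and 2 of the 6 of Gata6, beside 30.8% of all gene bodies. Of all gene bodies 9.49% passed as higher in adult heart and 21.3% as lower, and their median difference was -0.32. The Gata4 call itself was lost after median centring.

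**Figure D5:**
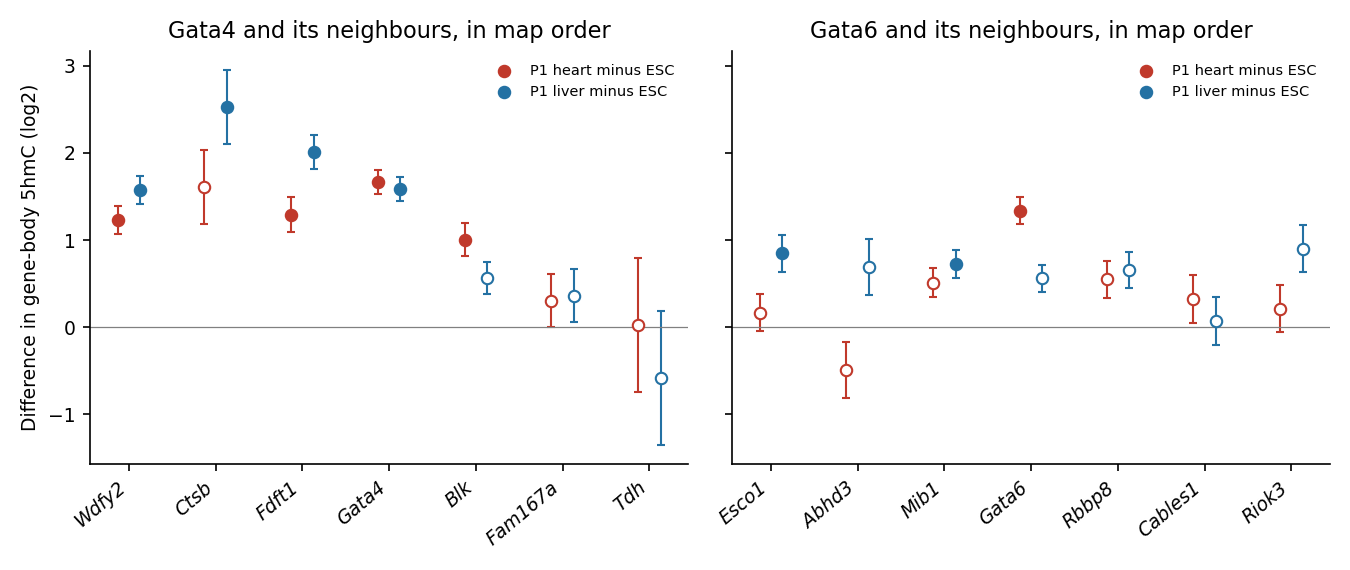
Difference in gene-body 5hmC from ESC (log2, vertical axes, ± SE) for Gata4 and Gata6 and the 3 nearest genes of the tables on each side, in map order and not to scale; filled points passed the adjusted threshold. Wdfy2 and Fdft1 beside Gata4 rise in both newborn tissues, while Gata6 at 1.33 in P1 heart stands above neighbours at -0.49 to 0.55.

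The genes whose gene-body pattern was most like that of each member were ranked by Pearson correlation of log2 levels over the 12 libraries, among 13483 genes. For Gata4 they were Irs1, the insulin receptor substrate (r = 0.947), Rabl3 (0.942), the mitochondrial peptidase Mipep (0.942), 4931414P19Rik (0.940) and Tox (0.934). For Gata6 they were Osbpl8 (0.938), the kinase Stk38l (0.927), Khdrbs3 (0.910), the mitofusin Mfn2 (0.904) and Fam59a (0.900). Irs1 rose from 0.500 ± 0.0219 FPKM in ESC to 1.37 ± 0.262 in P1 heart and 1.26 ± 0.0406 in P1 liver (SD, n = 2 each). Gata6 ranked 131 among the genes most like Gata4 (r = 0.835), and Gata4 ranked 45 for Gata6. The 12 points share libraries, read format and depth by group, so r is a description. Without W8 heart replicate 2, 2 of the 5 genes of Gata4 and 1 of the 5 of Gata6 stayed among the top 5.

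Summed levels of markers of other cells also differed in some of these comparisons. The summed gene-body level of 7 erythroid markers ran from 9.83 to 11.5 FPKM in ESC, from 5.97 to 7.80 in newborn heart and from 9.001 to 10.3 in P1 liver, with 0 of them at 0. For 8 endothelial markers it ran from 6.02 to 6.30 FPKM in W8 heart and stood at 4.00 in both W8 liver libraries. For 8 fibroblast and stellate markers it ran from 5.22 to 5.70 FPKM in W8 heart and from 1.96 to 2.31 in W8 liver, and from 5.97 to 7.21 in P1 heart and 5.31 to 5.51 in P1 liver, where 1 of the 8 was at 0. In ESC the endothelial sum ran from 7.92 to 8.83 FPKM and the fibroblast and stellate sum from 7.79 to 9.23. No tissue library exceeded these ranges. The erythroid sum was 6.56 FPKM in E14 liver, below ESC. Such sums are levels of 5hmC and do not count cells. Between the adult tissues the deposited level of the Gata4 body was lower in heart, and the endothelial and the fibroblast and stellate sums were higher there. After median centring the Gata4 difference was -0.20 (limma adjusted p = 0.309), and the sums were not centred. The part of such cells in the levels of Gata4 and Gata6 was not tested.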

How the data were processed

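5hmC-bearing DNA was captured and sequenced from 12 libraries. Alignment used Bowtie2 and mm9, per the submitters' processing notes, and the sources used here give neither a version nor a read counter. The authors deposited FPKM values for a 4000 bp promoter window and the gene body of 13581 entries, per the file headers. Entries without coordinates (23) or with a body of no positive length (9) were dropped; 0 columns of per-sample values were left unused. Whole reads were recovered from the steps between FPKM values: 100% of bodies were whole multiples within 0.01 reads. In single-end libraries, where 2 step sizes occur, reads are approximate. Exact 95% intervals and floors of 3 reads cover counting error only, since reads carry no molecular identifiers.

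Means of the 7 groups were fitted to log2(FPKM + pseudocount) in limma 3.58.1 (R 4.3.3) over the 12 libraries together; a variance trend was used and 5 residual degrees of freedom remained. Pseudocounts were 0.0746 for bodies and 0.0723 for promoters; genes needed a mean of 0.0809 or 0.0739 FPKM. P-values were adjusted over all genes within each of 7 comparisons, at 0.05. The E14 libraries were assumed to vary like the others. The fit was also run on simulated data as a check of the code, and its outcome is not reported here.

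Named genes were Gata4 and Gata6, up to 4 list members with the smallest adjusted p, the 3 nearest genes on each side and the 5 most alike by correlation; Gata1, Gata2, Gata5, Tdh and further values were named after they were seen. The values of 1 list gene are not reported here. RefSeq (GRCm38.p6) matched 13529 of 13549 usable entries and gave gene order. Members and lists were chosen with earlier results of these data known. Alternatives covered the pseudocount, the filter, the samples in the fit, a replicate block and each library left out; median centring and the list counts without W8 heart replicate 2 were added after seeing the data.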

Additional observations from a re-analysis of the deposited data

Results flagged for a closer look

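As deposited, the change from P1 to W8 ran in opposite directions in heart and liver for both genes. In the gene body of Gata4 both W8 heart libraries lay below both P1 heart libraries, and both W8 liver libraries lay above both P1 liver libraries; the change in heart less that in liver was -0.59 on the log2 scale. For Gata6 the same held, with -1.02. The test of that difference in limma gave adjusted p = 0.182 and 0.103, which miss the threshold. After median centring the Gata4 change in heart was 0.0049, and by rank within a library the 2 W8 heart values of Gata4 lay on both sides of the P1 heart ones. Read format differs between P1 and W8 in both tissues. The share of all gene bodies whose libraries separate in this way was not counted. W8 heart replicate 2 held 19 reads in the Gata4 body and 12 in the Gata6 body.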

How the results depend on the processing

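With only the replicate number as an added block, the 14 gene-body and 14 promoter results kept their direction and their side of the threshold; Gata4 in P1 heart against ESC was 1.66 with the replicate block (limma adjusted p = 0.0223). The labels do not pair the libraries by number, and deviations of same-numbered libraries correlated at -0.0114 to 0.0421 in gene bodies. The filter on low values changed no call. In gene bodies, a pseudocount 10 times smaller put Gata6 in P1 liver against ESC at 0.61, past the threshold, and one 10 times larger put Gata6 in P1 heart against P1 liver at 0.52, past it. Median centring put that comparison at 1.03 and Gata6 in W8 liver against P1 liver at 0.72, both past, and Gata4 in W8 heart against W8 liver at -0.20, no longer past; it turned Gata6 in W8 heart against W8 liver to 0.0726 and Gata4 in W8 heart against P1 heart to 0.0049. With only the groups compared in the fit, Gata4 in W8 heart against W8 liver stayed at -0.52 and missed the threshold. In promoter windows, the larger pseudocount put Gata6 at -1.30 in P1 heart and -1.12 in P1 liver against ESC, both past, and the fit of only those groups put P1 liver at -2.99, past. The causes were not tested.

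With each library left out in turn, gene-body differences whose call changed ranged as follows. Gata4 ran from 1.57 to 1.75 in P1 heart and from 1.499 to 1.68 in P1 liver against ESC, from -0.57 to -0.47 in W8 heart against W8 liver, and from -0.65 to -0.54 for the difference of changes. Gata6 ran from 1.21 to 1.46 in P1 heart and from 0.44 to 0.68 in P1 liver against ESC, from 0.65 to 0.90 in P1 heart against P1 liver, and from -1.14 to -0.89 for the difference of changes. In promoter windows Gata6 ran from -4.04 to -3.90 in P1 heart and from -3.97 to -2.002 in P1 liver against ESC. Gata4 ran from -4.09 to -2.55 in W8 heart against W8 liver, and changed sign in W8 heart against P1 heart (-1.92 to 0.77), in W8 liver against P1 liver (-0.17 to 0.67) and in the difference of changes (-2.17 to 0.52). Where an omission leaves 1 library in a group, that library is assumed to vary like the others. Depth limits the promoter windows, with 0 to 43 reads per library in the members.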
